A study of Mus musculus with 5 samples.

Results

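The renin-angiotensin system genes were described in mouse heart on 5 whole-transcript arrays. The 8 genes listed were Agt, Ace, Agtr1a, Agtr1b, Agtr2, Ren1, Mas1 and Atp6ap2. Each was represented by the probe set annotated with that single symbol, and 7 of the 8 had one, of 22180 genes in all. Ren1 was not analysed here. The animals were 12-week-old males on a C57BL/6 background. Wild type hearts were on 3 arrays, labelled as replicates 3, 4 and 5. The Akita group (Ins2+/-) held 2 arrays (replicates 1 and 3) from mice with a mutation in the Insulin 2 gene, which the labels call a type 1 diabetic model. The mutation is carried throughout the body, and its known primary effect is on the insulin-producing cells of the pancreas. By what route it affects the heart was not tested. The labels do not say whether each array came from a separate animal, so p-values measure only the spread between these arrays, which may be technical.

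The renin-angiotensin system turns 1 circulating precursor into a set of small peptide hormones. Renin, encoded by Ren1, cuts the precursor angiotensinogen (Agt) to angiotensin I, and angiotensin-converting enzyme (Ace), an enzyme of the endothelial surface, trims that peptide to angiotensin II. Angiotensin II acts through the type 1 receptors (Agtr1a and Agtr1b in mice), which raise blood pressure and drive growth and matrix production in the heart, and through the type 2 receptor (Agtr2), which is often described as opposing them. Mas1 is the receptor for angiotensin 1-7, and Atp6ap2, the prorenin receptor, is also an accessory protein of the vacuolar proton pump. Drugs against Ace and the type 1 receptor are standard treatment in diabetes with heart or kidney disease, which is why these transcripts are of interest in a diabetic heart.

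Upstream windows from RefSeq (GRCm38.p6) show what lies in front of the starts of the genes whose signal was clear in the heart. A window was held for 7 of the 8 genes, and Agtr1a had no entry. The 250 bases before the start are given 5′ to 3′ on the gene's strand for Agt (chr8:124569707-124569956, minus strand), for the 2 starts of Ace on chromosome 11 (chr11:105967698-105967947 and chr11:105974939-105975188, both plus strand) and for Atp6ap2 (chrX:12587509-12587758, plus strand). Capitals mark matches, on either strand, to the letters of a TATA box (TATAAA). They also mark a CAAT box (CCAAT). A GC box (GGGCGG) and a cyclic AMP element (TGACGTCA) were searched in the same way, and neighbouring matches can run together.
Agt: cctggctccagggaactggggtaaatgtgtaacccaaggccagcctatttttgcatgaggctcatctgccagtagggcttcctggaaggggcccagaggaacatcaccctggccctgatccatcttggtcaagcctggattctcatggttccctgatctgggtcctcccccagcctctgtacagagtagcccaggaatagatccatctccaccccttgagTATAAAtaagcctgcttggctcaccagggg
Ace, upstream start: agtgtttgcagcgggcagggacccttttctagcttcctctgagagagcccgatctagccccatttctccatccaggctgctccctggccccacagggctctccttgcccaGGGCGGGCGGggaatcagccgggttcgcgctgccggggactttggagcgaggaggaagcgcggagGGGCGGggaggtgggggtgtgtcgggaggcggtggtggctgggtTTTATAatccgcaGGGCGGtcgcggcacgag
Ace, internal start: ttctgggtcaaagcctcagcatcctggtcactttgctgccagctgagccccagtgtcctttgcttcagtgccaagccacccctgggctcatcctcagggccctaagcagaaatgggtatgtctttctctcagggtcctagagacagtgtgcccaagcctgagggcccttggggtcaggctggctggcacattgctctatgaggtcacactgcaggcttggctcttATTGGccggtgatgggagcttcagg
Atp6ap2: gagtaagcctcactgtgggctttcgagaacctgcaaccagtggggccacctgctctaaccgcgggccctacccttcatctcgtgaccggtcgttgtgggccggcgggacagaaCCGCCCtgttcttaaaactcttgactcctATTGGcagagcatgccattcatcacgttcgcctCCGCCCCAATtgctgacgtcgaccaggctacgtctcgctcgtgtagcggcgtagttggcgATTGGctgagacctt

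The Agt window held a TATA box whose first base lay at -30 from the start, and the upstream Ace window held one on the other strand at -31 together with 4 GC boxes. The internal Ace start lay 7241 bases downstream of the first, and its window held a CAAT box on the other strand. Ace is known to use an internal promoter for its testis form. The Atp6ap2 window held no TATA box, 3 CAAT boxes and 2 GC boxes. Over the 32851 windows of this length in the table, 12.4% held the TATA letters, 33.8% the CAAT box, 32.7% the GC box and 1.55% the cyclic AMP element. These matches are descriptions of letters, and the arrays did not measure which start was used.

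None of the 4 renin-angiotensin genes above the filter on dim genes passed the test between Akita and wild type hearts. Agt lay higher and Ace lower in both Akita hearts, each by 0.25 on the log2 scale, while Atp6ap2 and Agtr1a overlapped between the groups and Agtr1b, Agtr2 and Mas1 gave signals under the filter on dim genes. Of the 15528 genes tested with limma at a Benjamini-Hochberg adjusted p under 0.05, 51 (0.328%) were called, and 0 of the 4 members tested were among them. At an unadjusted p under 0.05 the members again gave 0 of 4, against 13.6% of all genes tested. That count was 2 of 4 (Agt and Atp6ap2) with quantile normalization again, where 2036 of all 15528 genes did so. It was the same 2 with the arrays centred over the genes tested, where 1982 of all genes did so. With arrays centred over all probe sets it was 0 of 4, where 2258 of all genes did so. Without Akita replicate 1 the log2 differences of Agt and Atp6ap2 were 0.35 and 0.36, and without Akita replicate 3 that of Ace was -0.38. The smallest difference among the 51 called genes was 0.78 on the log2 scale, and the members differed by at most 0.25. Of the 4, 2 lay higher and 2 lower, where 43.3% of all genes tested lay higher and 56.4% lower.

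Signals are log2 values, and levels of different members were not set against each other, because a probe's brightness depends on its sequence. The summed linear signals of the marker lists below do add different probe sets, so the brightest genes count most in them. Agt, the precursor, gave log2 signals of 5.65, 5.74 and 5.62 in wild type replicates 3, 4 and 5 and of 5.82 and 6.02 in Akita replicates 1 and 3. Both Akita arrays lay above all 3 wild type arrays, with a gap of 0.08 between the groups. The means were 5.67 ± 0.06 (SD, n = 3) and 5.92 ± 0.14 (SD, n = 2). The log2 difference was 0.25 (SE 0.12, limma adjusted p = 0.405), or 1.19-fold with a 95% interval of 0.984 to 1.44.

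Ace, which makes angiotensin II and also breaks down bradykinin, gave 8.92, 8.79 and 8.71 in the wild type arrays and 8.43 and 8.69 in Akita replicates 1 and 3. The groups did not overlap, but Akita replicate 3 lay only 0.02 under the lowest wild type array. The means were 8.81 ± 0.11 (SD, n = 3) and 8.56 ± 0.18 (SD, n = 2), a log2 difference of -0.25 (SE 0.13, limma adjusted p = 0.460), or 0.843-fold with a 95% interval of 0.683 to 1.04. Thus 2 of the 4 members tested had groups that did not overlap, 1 in each direction, where 29.7% of all genes tested did so (9.89% with Akita above and 19.9% with Akita below). In bulk heart RNA, fewer cells of a type and less RNA per cell cannot be told apart.

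Atp6ap2, the prorenin receptor, gave 7.19, 6.97 and 7.11 in the wild type arrays and 7.16 and 7.45 in Akita replicates 1 and 3. Akita replicate 1 lay inside the wild type range and replicate 3 above it. The log2 difference was 0.22 (SE 0.13, limma adjusted p = 0.531), or 1.16-fold with a 95% interval of 0.933 to 1.44.

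Agtr1a, the main type 1 receptor of the mouse heart, gave 8.79, 8.84 and 8.71 in the wild type arrays and 8.51 and 8.80 in Akita replicates 1 and 3. Akita replicate 1 was the lowest of all 5 arrays and replicate 3 lay within the wild type range. The log2 difference was -0.13 (SE 0.13, limma adjusted p = 0.712), or 0.917-fold with a 95% interval of 0.746 to 1.13, and it was 0.02 without Akita replicate 1.

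**Figure D1:**
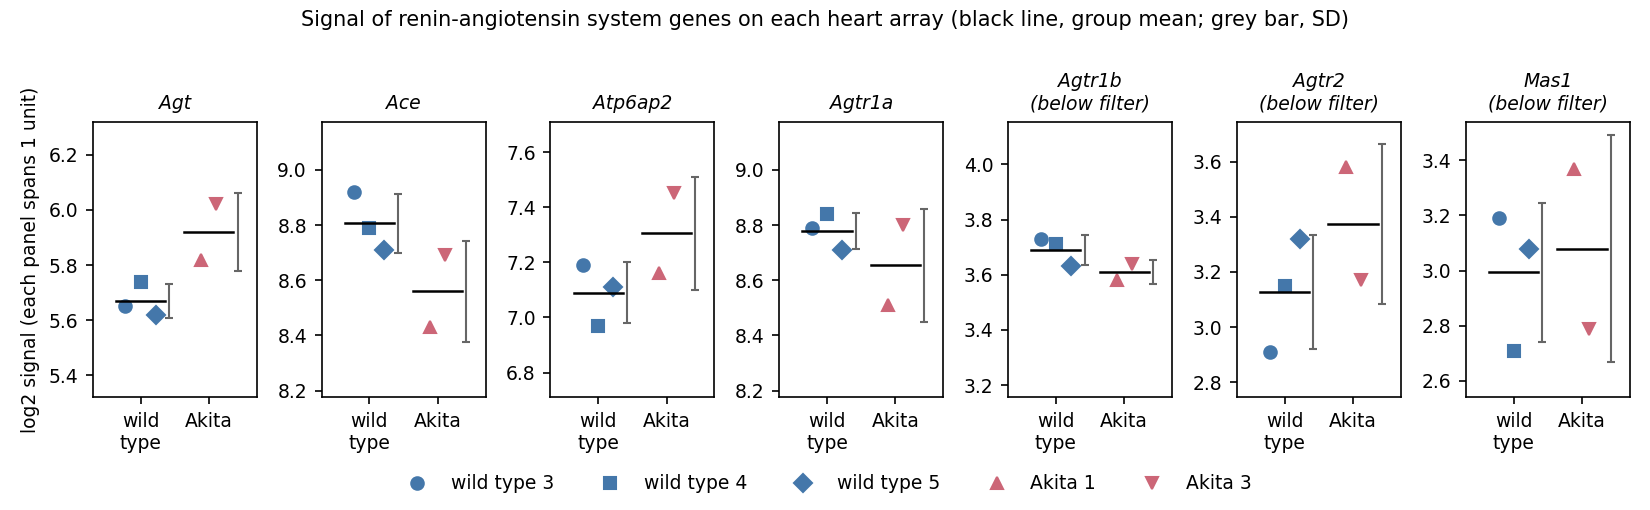
Log2 signal (vertical axis, 1 unit in each panel) of the 7 measured genes on 3 wild type arrays (blue) and 2 Akita arrays (red), with group means as black lines and SD as grey bars. Both Akita points lie above the wild type points for Agt and below them for Ace, by gaps of 0.08 and 0.02, and the groups overlap in the other 5 panels.

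The remaining receptors lay under the filter on dim genes, set at the 30th percentile of mean signal (log2 4.06), and were tested only in the fit without a filter. Agtr1b, the second type 1 receptor of rodents, gave 3.73, 3.71 and 3.63 in wild type and 3.58 and 3.64 in Akita replicates 1 and 3. Agtr2, the type 2 receptor, gave 2.91, 3.15 and 3.32 in wild type and 3.58 and 3.17 in Akita. Mas1, the angiotensin 1-7 receptor, gave 3.19, 2.71 and 3.08 in wild type and 3.37 and 2.79 in Akita. The groups overlapped for all 3 of these receptors. Without the filter their log2 differences were -0.08, 0.25 and 0.09, with SE of 0.11, 0.17 and 0.21 and limma adjusted p = 0.835, 0.623 and 0.910. Whether these probe sets carry signal from their transcripts was not tested.

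The members did not move as a block, and the 2 Akita arrays differed from each other. Set against the wild type mean, Akita replicate 1 stood at 0.15 for Agt, 0.07 for Atp6ap2, -0.27 for Agtr1a and -0.38 for Ace, on the log2 scale. Akita replicate 3 stood at 0.35, 0.36, 0.02 and -0.12 for the same genes, so it was the higher Akita array for each of the 4. The median SD within groups over all genes tested was 0.144, and the Akita SD was 0.14 for Agt, 0.18 for Ace and 0.21 for both Agtr1a and Atp6ap2. Centring each array on its median over the genes tested gave log2 differences of 0.34 for Agt, 0.31 for Atp6ap2, -0.03 for Agtr1a and -0.15 for Ace. Centring over all probe sets moved them the other way, to 0.165, 0.13, -0.21 and -0.33.

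**Figure D2:**
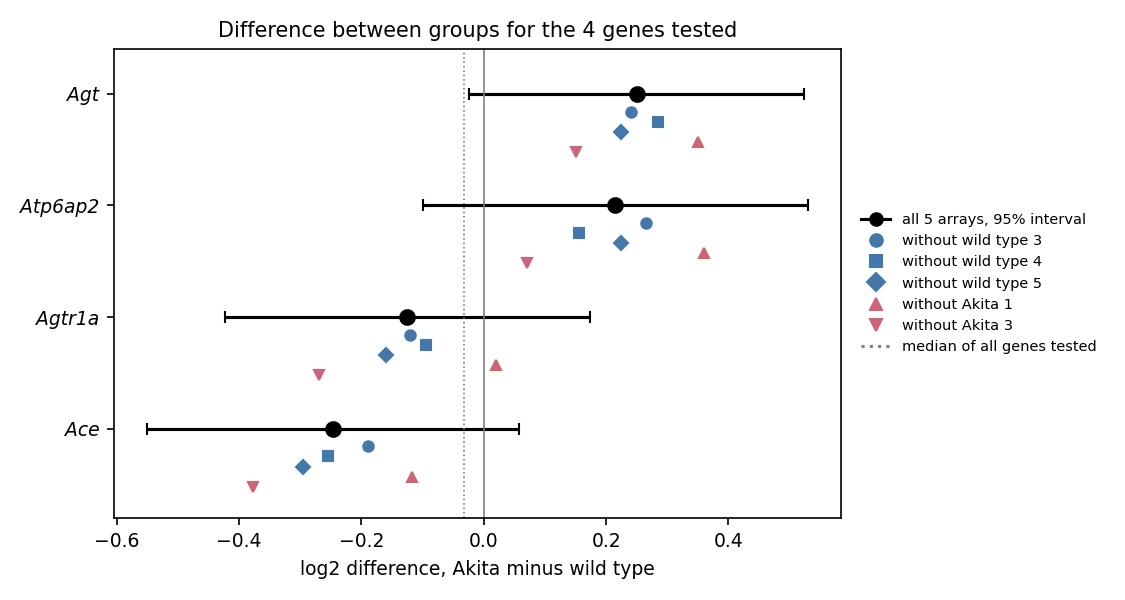
Log2 difference, Akita minus wild type (horizontal axis), for the 4 tested genes: black points with 95% intervals from all 5 arrays, and coloured points with 1 array left out. Each interval includes 0, and Agtr1a moves from -0.13 to 0.02 without Akita replicate 1.

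Among 145 other genes of the pathway and marker lists, those whose log2 values over the 5 arrays, centred on each gene's own mean, came nearest to each member were found as a description. Nearest to Ace were Gna11, a G protein subunit used by the type 1 receptor, and the macrophage gene Adgre1, with root mean square differences of 0.0316 and 0.0350. Nearest to Agtr1a were the peptidase gene Prep (0.0471) and the pericyte potassium channel gene Kcnj8 (0.0492). For Agt they were Pecam1 (0.0585) and Mtus1 (0.0644), and for Atp6ap2 the matrix gene Dcn (0.0557) and again Mtus1 (0.0651). The small number of arrays makes these likenesses a description only.

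The other peptidases that make or break angiotensin peptides mostly lay lower in Akita hearts, and 0 passed the test (3 of 11 at an unadjusted p under 0.05, where 13.6% of all genes tested did so). Of 16 listed, 14 had a probe set and 11 passed the filter. Of these 11, 9 lay lower and 2 higher with a median log2 difference of -0.12, where 56.4% of all genes tested lay lower with a median difference of -0.03. The number lower was 6 with quantile normalization again (median -0.0043), 7 with arrays centred over the genes tested and 11 with arrays centred over all probe sets. Ctsa, encoding cathepsin A, gave 9.88, 9.77 and 9.75 in wild type and 9.32 and 9.53 in Akita replicates 1 and 3 (log2 difference -0.38, SE 0.12, limma adjusted p = 0.260). Rnpep, an aminopeptidase gene, gave 7.17, 7.29 and 7.09 against 6.62 and 6.92 (-0.41, SE 0.13, limma adjusted p = 0.270). Ctsd, encoding cathepsin D, an aspartic protease related to renin, gave 11.77, 11.79 and 11.76 against 11.54 and 11.45 (-0.28, SE 0.10, limma adjusted p = 0.318). In these 3 of the 11 both Akita arrays lay under all wild type arrays, where 19.9% of all genes tested did so, and Prep overlapped (-0.17, limma adjusted p = 0.565). Mme, the neprilysin gene, and Enpep, an aminopeptidase gene, differed by -0.04 and -0.01. The chymase genes Cma1 and Mcpt4, whose products can form angiotensin II without Ace, lay under the filter, as did Ctsg.

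Among partners of the receptors, Agtrap, whose product binds the type 1 receptor and promotes its internalisation, gave 7.53, 7.39 and 7.56 in wild type and 6.92 and 7.15 in Akita replicates 1 and 3. Both Akita arrays were lower, with a log2 difference of -0.46 (SE 0.12, limma adjusted p = 0.209). Apln, encoding the peptide apelin, whose receptor is a relative of the type 1 receptor, gave 6.30, 6.21 and 5.82 against 5.42 and 5.66 (-0.57, SE 0.17, limma adjusted p = 0.235). Mtus1, encoding a protein that interacts with the type 2 receptor, differed by 0.22 (limma adjusted p = 0.497) and Zbtb16 by 0.10 (limma adjusted p = 0.842). Of 6 partners listed, 5 passed the filter, 3 of them lower and 2 higher, where 56.4% of all genes tested lay lower. Of the 5, 0 passed the test and 2 had an unadjusted p under 0.05, where 13.6% of all genes tested did so. In 2 of the 5 both Akita arrays lay under all wild type arrays, where 19.9% of all genes tested did so. Over the list the median difference was -0.07; measured from the wild type mean it was -0.31 on the array of Akita replicate 1 and 0.17 on that of replicate 3.

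Signal carriers of the type 1 receptor had no common direction that held across scalings. Of 23 listed, 18 were tested, 9 higher and 9 lower with a median of -0.01. Of the 18, 0 passed the test and 2 had an unadjusted p under 0.05, where 13.6% of all genes tested did so. The split depended on scaling: it was 12 higher and 6 lower with arrays centred over the genes tested, and 5 higher and 13 lower with arrays centred over all probe sets. Grk5, a kinase that desensitises such receptors, gave 8.20, 7.87 and 8.02 in wild type and 8.23 and 8.62 in Akita (0.40, SE 0.16, limma adjusted p = 0.343). Arrb2, encoding beta-arrestin 2, gave 6.06, 6.29 and 6.11 against 5.59 and 5.93 (-0.39, SE 0.14, limma adjusted p = 0.307). The protein kinase C gene Prkca differed by 0.31 and the G protein gene Gnaq by -0.27, with limma adjusted p = 0.388 and 0.403. The groups did not overlap in these 4 genes, which were chosen by smallest p, or in 8 of the 18 in all (3 with Akita above and 5 below), where 29.7% of all genes tested did not overlap.

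Of 16 genes that angiotensin II is known to induce, 12 were tested. Of these, 1 passed the test with Akita higher (0.213% of all genes tested did so), the matrix growth regulator gene Ccn2. The list was chosen with earlier results of these data known, so this count is a description only. Ccn2 gave 7.84, 7.85 and 7.70 in wild type and 8.69 and 8.86 in Akita (log2 difference 0.98, SE 0.12, limma adjusted p = 0.0285). With any single array left out its difference stayed at 0.89 to 1.06, but its call ended (adjusted p from 0.0557 to 0.182), as it did in the unmoderated model (adjusted p = 0.253) and with the mean of its probe sets (0.51, adjusted p = 0.204). The other leading genes did not pass: Tgfb1, a fibrotic cytokine gene, differed by -0.31, the immediate early gene Egr1 by -0.61 and Col3a1, a collagen gene, by 0.48, with limma adjusted p = 0.460, 0.465 and 0.491. The list had 8 genes higher and 4 lower with a median of 0.10, where 43.3% of all genes tested lay higher. With arrays centred over all probe sets 6 lay higher and 6 lower, with a median of 0.02. Measured from the wild type mean, the list median stood at -0.19 in Akita replicate 1 and 0.35 in replicate 3. Markers of fibroblasts stood at 0.02 and 0.59 in the same arrays. Both lists hold the same collagen genes, Col3a1 among them, so their medians are not independent. The part of fibroblasts in the list's values was not tested.

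**Figure D3:**
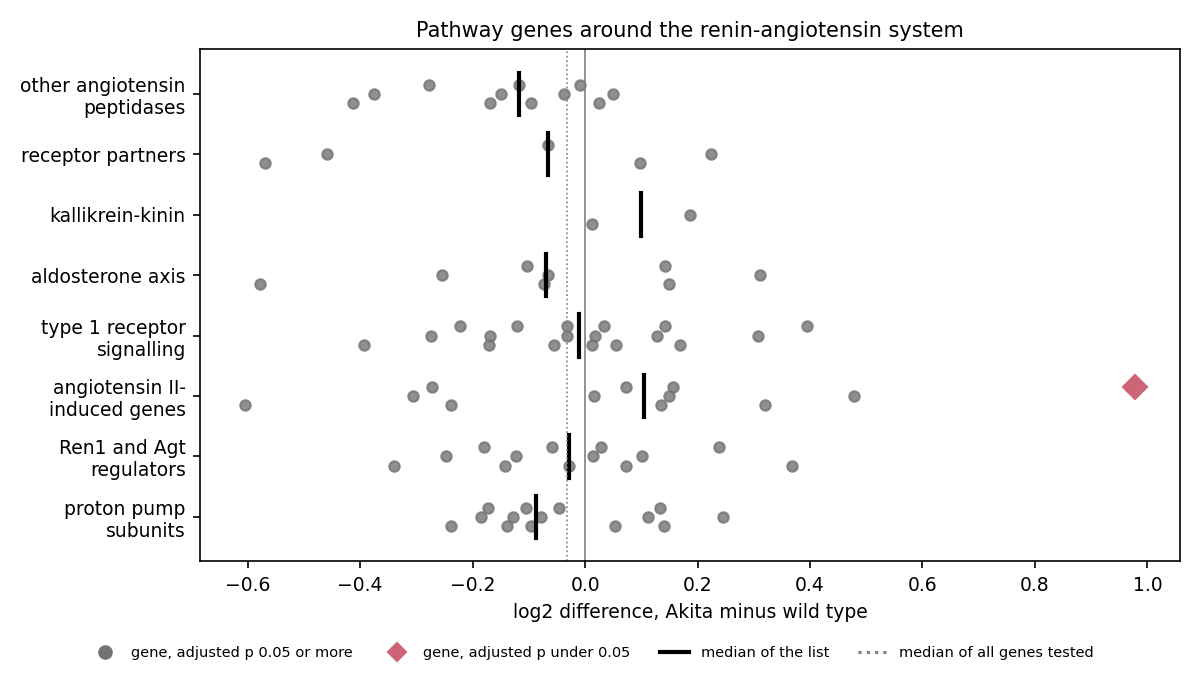
Log2 difference, Akita minus wild type (horizontal axis), for each tested gene of 8 lists around the renin-angiotensin system, with list medians as black bars. Ccn2, at 0.98, is the 1 gene past the threshold, and list medians run from -0.12 to 0.10.

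Aldosterone is the steroid that angiotensin II releases from the adrenal gland. Of 11 genes of its synthesis, receptor and response, 8 were tested, 3 higher and 5 lower with a median of -0.07. Of the 8, 0 passed the test and 1 had an unadjusted p under 0.05, where 13.6% of all genes tested did so. The split was 5 higher and 3 lower with quantile normalization again, and also with arrays centred over the genes tested. Nr3c2, the mineralocorticoid receptor gene, differed by -0.07 (SE 0.15, limma adjusted p = 0.889), and Cyp11b2, aldosterone synthase, lay under the filter. Per1, which also follows corticosteroids and the clock, gave 9.23, 9.18 and 9.17 in wild type and 9.03 and 8.20 in Akita replicates 1 and 3 (-0.58, limma adjusted p = 0.327). Fkbp5, Tsc22d3 and Hsd11b1 differed by 0.31, -0.26 and -0.10, with limma adjusted p = 0.644, 0.694 and 0.739. Of 5 kallikrein-kinin genes, whose peptide bradykinin Ace destroys, the 2 receptor genes Bdkrb1 and Bdkrb2 were tested and differed by 0.19 and 0.01 (limma adjusted p = 0.690 and 0.989).

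Transcription factors known to act on Ren1 or Agt lay on both sides, with 6 of 13 higher and 7 lower and a median of -0.03. Of the 13, 0 passed the test and 1 had an unadjusted p under 0.05, where 13.6% of all genes tested did so. The split was 3 higher and 10 lower with arrays centred over all probe sets, and 9 higher and 4 lower without Akita replicate 1. Nr1h3, the liver X receptor alpha gene, gave 6.27, 6.45 and 6.33 in wild type and 6.02 and 6.00 in Akita (-0.34, SE 0.11, limma adjusted p = 0.275). Creb1 differed by -0.25, the vitamin D receptor gene Vdr by 0.37 and Cebpb by 0.24, with limma adjusted p = 0.374, 0.457 and 0.563. Of the proton pump subunits that Atp6ap2 assists, 9 of 14 tested lay lower and 5 higher with a median of -0.09, while Atp6ap2 itself differed by 0.22. Of the 14 subunits, 0 passed the test and 0 had an unadjusted p under 0.05, where 13.6% of all genes tested did so. With arrays centred over the genes tested 7 lay lower, and 10 with arrays centred over all probe sets. Atp6ap1, the other accessory subunit, gave 9.70, 9.58 and 9.77 in wild type and 9.42 and 9.47 in Akita (-0.24, SE 0.11, limma adjusted p = 0.411). Atp6v0d1, Atp6v1f and Atp6v1e1 differed by -0.19, 0.25 and -0.14, with limma adjusted p = 0.525, 0.565 and 0.628.

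Marker genes of the cell types that hold these transcripts were set beside the members. All 8 cardiomyocyte markers passed the filter. Of them 7 lay lower in Akita, led by Myl2 (-0.25) and Tnni3 (-0.15), and Myh6 lay at 12.91 in both groups. In 6 of the 8 both Akita arrays lay under all wild type arrays, where 19.9% of all genes tested did so. The gaps ran from 0.01 to 0.12, the widest for Myl2. Of the 8, 0 had an unadjusted limma p under 0.05, where 13.6% of all genes tested did so. How this count depends on scaling was not tested. The list's summed linear signal ran from 51785 to 53283 in wild type and from 49730 to 49976 in Akita hearts. Ace is an endothelial enzyme. Of 8 endothelial markers 4 lay higher and 4 lower, and the summed linear signal of the list ran from 4987 to 5496 in wild type and from 5441 to 5999 in Akita hearts. The list median stood at 0.00 and 0.06 in Akita replicates 1 and 3, where Ace stood at -0.38 and -0.12. The endothelial genes were split: Kdr differed by 0.29 and Emcn by 0.22, while Tek, Egfl7 and Esam differed by -0.22, -0.17 and -0.14. Tek, a receptor for angiopoietins that was named after its values were seen, stood at -0.33 and -0.10 in the Akita arrays. Pecam1 stood at 0.04 and 0.24 there, and Cdh5 at 0 and 0.21.

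Agt is made by liver, adipocytes and fibroblasts, among other cells. Of 9 adipocyte markers, 7 passed the filter and all 7 lay higher in group mean, led by Ucp1 (1.84) and Cidec (0.78). Adipoq and Lep lay under the filter, and their groups overlapped. The list's median stood at 0.33 and 0.53 in Akita replicates 1 and 3. Agt had the same order, but so did the other members tested. The endothelial, fibroblast, pericyte and smooth muscle, epicardial, atrial, macrophage and mast cell medians had it too. The hepatocyte, cardiomyocyte and blood lists had the reverse order. Its summed signal ran from 3536 to 3837 in wild type and from 4497 to 4744 in Akita. Most of that sum was 1 gene, Fabp4, which gave 11.59, 11.52 and 11.67 in wild type and 11.91 in both Akita arrays. Pparg differed by 0.02. Hepatocyte markers Alb, Serpina1a and Apoh lay under the filter, and Ttr and Apoa1 differed by 0.36 and 0.31 (summed signal of all 5, 97 to 111 in wild type and 112 to 137 in Akita). The part of these cells in the Agt signal was not tested.

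Agtr1a is known from pericytes and fibroblasts of the heart. Of 9 pericyte and smooth muscle markers, 5 lay higher and 4 lower, with a summed signal of 7489 to 7911 in wild type and 7351 to 8154 in Akita. Cnn1 and Acta2 differed by 0.22 and -0.14. The median over these markers stood at -0.23 on the array of Akita replicate 1 and 0.16 on that of replicate 3, where Agtr1a stood at -0.27 and 0.02. Fibroblast markers, 7 of 8 higher and led by Lum (0.58) and Col3a1 (0.48), summed to 6913 to 7408 in wild type and 7381 to 9223 in Akita. Their part in the Agtr1a values was not tested.

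Akita replicate 3 stood apart in markers of the atria and the heart's surface. All 6 atrial markers lay higher in group mean, with a list median of -0.17 in Akita replicate 1 and 2.36 in replicate 3. The summed signal was 4447 to 4784 in wild type and 5265 to 16551 in Akita. Akita replicate 1 was mixed: Myl7 and Sln stood at -1.45 and -1.23, below all wild type arrays. Myl4 and Dkk3 stood at -0.18 and -0.17 there, and Nppa and Bmp10 at 0.33 and 0.89. Bmp10, an atrial growth factor gene, gave 4.63, 4.64 and 5.18 in wild type and 5.71 and 10.83 in Akita replicates 1 and 3, and Dkk3 differed by 1.10. Epicardial markers, 4 of 6 higher and led by Upk3b (0.73) and Msln (0.64), stood at 0.08 and 0.82 and summed to 258 to 263 in wild type and 273 to 447 in Akita. Akita replicate 3 also gave the highest Agt and Atp6ap2 signals. Without it the log2 differences were 0.15 for Agt, 0.07 for Atp6ap2, -0.27 for Agtr1a and -0.38 for Ace, with limma adjusted p = 0.537, 0.808, 0.288 and 0.207. Without Akita replicate 1 they were 0.35, 0.36, 0.02 and -0.12. Macrophage markers, 4 of 6 lower and led by Cd68 (-0.85) and C1qa (-0.35), stood at -0.37 and -0.04, with a summed signal of 1410 to 1470 in wild type and 1290 to 1402 in Akita. Mast cells carry the chymases, and of their 6 markers 3 passed the filter, with 2 higher and 1 lower, Cpa3 at 0.20; Fcer1a, under the filter, differed by 0.41. Their summed signal was 122 to 157 in wild type and 142 to 151 in Akita. The only blood marker measured, Slc4a1, differed by 0.23.

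**Figure D4:**
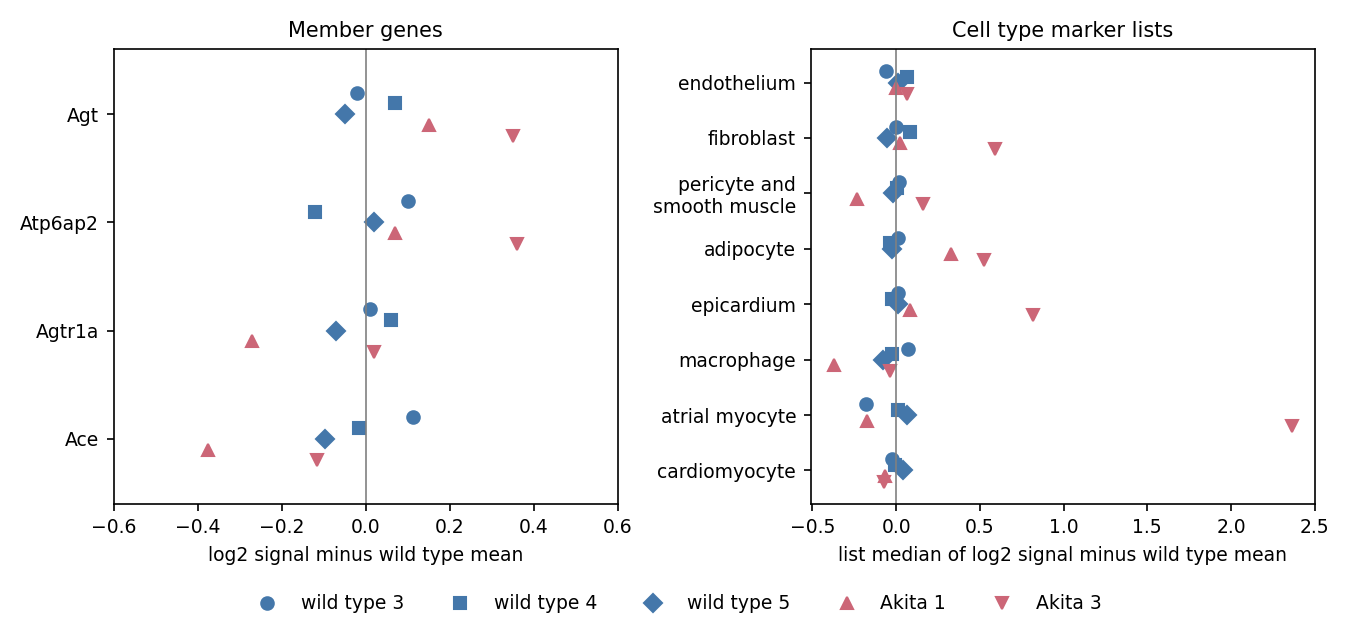
Log2 signal minus the wild type mean on each array for the 4 tested genes (left) and the median of the same quantity over 8 lists of cell type markers (right, wider axis). Akita replicate 3 stands at 2.36 for atrial markers, and the median over the adipocyte markers is higher in both Akita arrays, at 0.33 and 0.53.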

How the data were processed

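The members and lists were chosen with earlier results of these data known. Each deposited value is the log2 signal of a probe set on an array (41345 probe sets, 1.27 to 13.66), made by the authors with Affymetrix Expression Console per the submitters' processing notes; algorithm, scaling and build: not given in the sources used here. Scaling between arrays would hide a change shared by most genes. The log base was read from the range. Of the probe sets, 23521 had 1 symbol, 1814 several and 16010 none. Each gene took its probe set of highest mean over the 5 arrays; each member measured had 1. Genes whose mean signal fell below the 30th percentile were not tested. Akita minus wild type was fitted with limma 3.58.1 in R 4.3.3 (lmFit, eBayes, two-sided, Benjamini-Hochberg; 3 residual and 4.38 prior degrees of freedom). The number of arrays limits precision. Array medians over all probe sets ran from 4.53 to 4.71.

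On simulated data of 15528 genes with 200 changed, the fit recovered 74% of log2 changes of 1 and 98% of changes of 2, with 5 false among 177 calls. Genes named were the members, genes past the threshold and up to 4 of each pathway list by smallest p. Up to 2 of each marker list by largest difference and the 2 list genes nearest each member by root mean square difference were also named. Myh6, Tek, Cdh5, Egfl7, Esam, Mme, Enpep, Nr3c2, Fabp4, Pparg, Myl7, Sln, Myl4 and Nppa were added after their values were seen. So were genes named for being under the filter or not analysed. No set test was used. Several list genes were not analysed here, and no protein sequence was used. Alternatives were other filters, the mean of probe sets, quantile normalization, centring, another prior, array weights, an unmoderated model, a threshold of 0.1 and each array left out; centring over all probe sets was chosen after seeing the data. With an Akita array left out, the remaining one was assumed to vary like the others. Motifs were searched in Python 3.11.15.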

Additional observations from a re-analysis of the deposited data

How the results depend on the processing

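The 4 tested members had 0 calls in the analysis as reported and under all 15 alternatives, where the limma adjusted p ran from 0.207 to 0.982. Agt and Atp6ap2 stayed higher and Ace lower under all of them, with log2 differences of 0.15 to 0.35, 0.07 to 0.36 and -0.38 to -0.12. Agtr1a ran from -0.27 to 0.02, and turned direction, to 0.02, without Akita replicate 1, in which it was lowest. Over all genes the 51 calls became 86 without a filter, 32 with quantile normalization again, 28 with array weights, 197 with an intensity trend and robust prior and 96 at a threshold of 0.1. They became 30 with arrays centred over the genes tested (25 higher and 5 lower, against 33 and 18) and 84 with arrays centred over all probe sets (41 higher and 43 lower). Those centrings took the median difference of all genes from -0.03 to 0.06 and -0.12. Calls ran from 9 to 44 with 1 array left out (leaving out wild type replicate 3, 4 or 5 gave 9, 14 and 21, and leaving out Akita replicate 1 or 3 gave 44 and 11). The unmoderated model gave 0 calls, with 1726 genes at an unadjusted p under 0.05. The 1 call in the pathway lists, Ccn2, became 0 with the mean of probe sets, in the unmoderated model and with each array left out in turn (0 to 0). The cause was not tested for any of these. No paired analysis was possible because the groups share only the replicate number 3. The number of arrays, 2 in the Akita group, limits the precision of each member.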
